A study of Mus musculus with 2 samples.

Results

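The genes of the calcium release apparatus of the sarcoplasmic reticulum, 10 in number, are described here, measured as RNA in hearts of mouse embryos at embryonic day 10.5. They were chosen by name from what they are known to do and not from their values, though earlier results of these data were known. They are the ryanodine receptor genes Ryr1, Ryr2 and Ryr3 and the IP3 receptor genes Itpr1, Itpr2 and Itpr3. The others are the calsequestrin genes Casq1 and Casq2, the triadin gene Trdn and the junctophilin gene Jph2. All 10 of 10 were found among the 43346 mouse genes of the tables, and 34 transcript models belonged to them. The study held 1 group of healthy B6NCrl embryos, for which the labels name no genetic change and no treatment, measured as 2 libraries. Replicate 1 was made from the pooled hearts of 69 embryos and replicate 2 from a separate pool of 51, and both pools mixed male and female embryos. Each library started from 10 ng of total RNA longer than 200 nt and carried ERCC spike-ins, which are synthetic RNAs of known amount. Whole hearts were pooled, so a lower value can come from fewer cells of a type or from less RNA per cell, and these cannot be told apart. With 1 group of 2 libraries there was no test and no p-value, and every mean below carries its SD over n = 2 pools.

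In a muscle cell, calcium for contraction is stored in the sarcoplasmic reticulum and leaves it through ryanodine receptors. RyR2 is the heart's main form, where calcium entering through the L-type channel opens it, and RyR1 is the skeletal muscle form, where the surface channel opens it directly. IP3 receptors are related release channels that open on inositol trisphosphate, the product of phospholipase C. Inside the store calsequestrin binds calcium, and triadin ties calsequestrin to the ryanodine receptor. Junctophilin bridges the store membrane and the plasma membrane so that the channels face each other.

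The levels are in TPM, a deposited measure of relative abundance in which the reads of each transcript are divided by its length. The libraries held 45205713 and 41070978 expected counts (estimated numbers of reads) in replicates 1 and 2, and spike-ins took 4.22% and 3.13% of them. The labelled tissue was checked against 8 cardiomyocyte markers, all of which were above 1 TPM in both pools, with a summed level of 12636 and 19544 TPM. Markers of other cells were present as well. Summed levels in replicates 1 and 2 were 28499 and 35245 TPM for 5 red cell genes, 2003 and 2489 TPM for 5 smooth muscle genes (most of it Acta2, at 1622 and 1946 TPM, with the smooth muscle myosin Myh11 at 0.56 and 0.19 TPM), 191 and 271 TPM for 6 endothelial genes, 851 and 615 TPM for 5 cushion mesenchyme genes and 235 and 217 TPM for 5 epicardial genes. They were 1303 and 52.8 TPM for 7 liver primordium genes, 90.6 and 74.9 TPM for 5 macrophage and platelet genes, 14.7 and 9.46 TPM for 6 neural genes and 5.29 and 2.01 TPM for 5 skeletal myoblast genes, of which Myf6 was at 0 counts in replicate 2.

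In both pools, 9 of the 10 release genes reached 1 TPM, and Ryr1 was the exception. The same held for 57.0% of 21474 protein-coding genes. By mean TPM the order was Casq1, Jph2, Itpr2, Trdn, Ryr2, Casq2, Itpr1, Itpr3, Ryr3 and Ryr1. The 2 pools' values of Casq1 lay above those of Jph2, and Jph2 lay above Itpr2. From Itpr2 down to Itpr1 each gene overlapped its neighbour in this order, so that Itpr2, Trdn, Ryr2, Casq2 and Itpr1 could not be ranked one against the next. Itpr3 and Ryr3 also overlapped, and Ryr1 lay below both.

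TPM depends on the length that the tables assign to a gene, which is an average over its transcript models weighted by their estimated abundance. For 8 of the 10 genes this length was within a few percent of the longest model. Of these, Itpr1, Itpr3 and Trdn have 1 quantified model each, and the quantified models of Ryr1, Ryr2 and Jph2 are nearly equal in length. For these genes the match was fixed in advance, although annotation release M21 lists 13 models of Itpr1, 8 of Trdn and 14 of Ryr2. In replicates 1 and 2 the longest model of Itpr2 was 4.48 and 3.60 times the gene length. That of Ryr3 was 3.20 and 4.93 times. A longest model of at least 2 times the gene length was seen for 9.40% of 12991 protein-coding genes, and for 33.0% of the 664 with a model of 8000 nt or more. The level was therefore also computed from counts with the longest model as the length of every gene. On that scale the order was Casq1, Jph2, Trdn, Ryr2, Casq2, Itpr1, Itpr2, Itpr3, Ryr3 and Ryr1. The neighbours that overlapped were then Trdn with Ryr2, Ryr2 with Casq2, and Casq2 with Itpr1, while Itpr2 lay below Itpr1 in both pools.

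**Figure D1:**
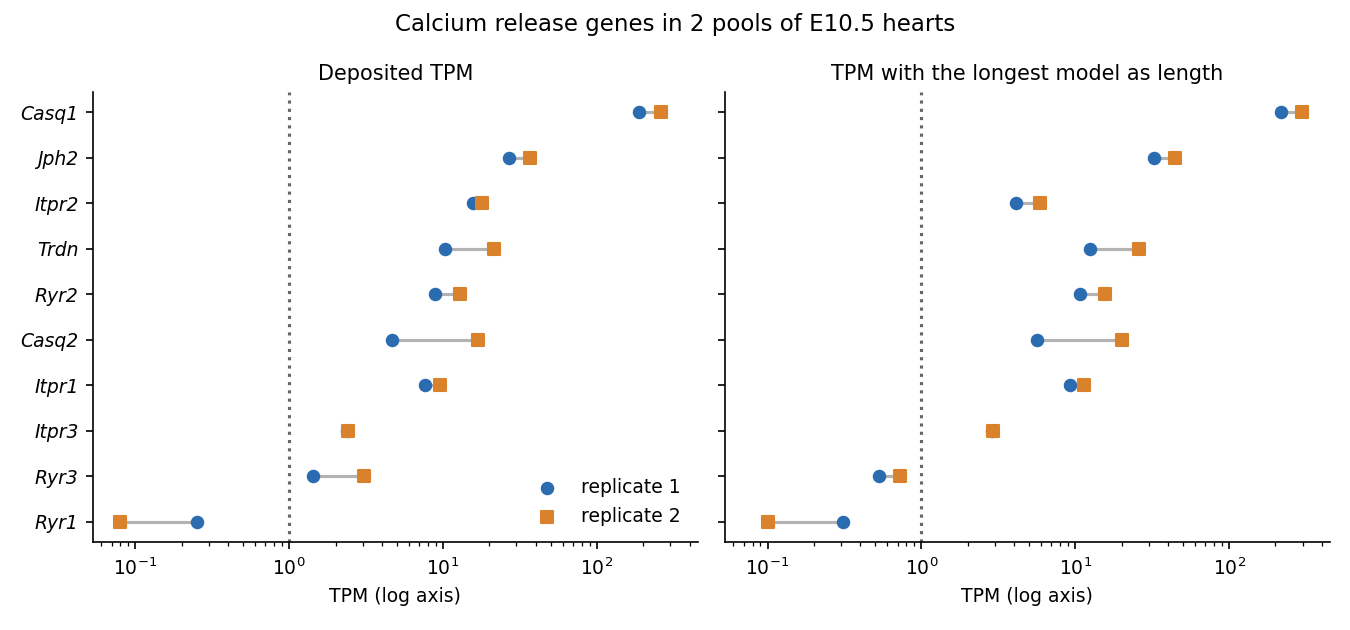
Level of each release gene in the 2 pools, as deposited TPM (left) and as TPM with the longest transcript model as the length (right), on logarithmic axes; circles are replicate 1, squares replicate 2, grey lines join them, and the dotted line is 1 TPM. Casq1 is highest and Ryr1 lowest in both panels, and Itpr2 and Ryr3 are the genes that move to the left in the right panel.

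Ryr2, the cardiac release channel (ENSMUSG00000021313.11, mm10 chromosome 13, 11553102 to 12106945, minus strand), stood at 8.80 TPM in the first pool and 12.86 TPM in the second. These levels rested on 4473 and 5897 counts over a gene length of 16813 nt, and their deposited intervals, 8.38 to 8.89 and 12.3 to 12.9 TPM, did not overlap. Among the ryanodine receptors Ryr2 was the highest in both pools. It held 84.0% and 80.5% of their summed TPM, and 92.7% and 94.95% with the longest model as length.

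Ryr3 (ENSMUSG00000057378.10, chromosome 2, 112631355 to 113217096, minus strand), the form found at low levels in many tissues, stood at 1.43 and 3.04 TPM from 204 and 252 counts. Its deposited intervals, 1.10 to 2.45 and 2.30 to 4.29 TPM, overlapped. Ryr2 exceeded it 6.15-fold and 4.23-fold by TPM, but 20.1-fold and 21.4-fold with the longest model as length, where Ryr3 stood at 0.53 and 0.73 TPM. The distance between Ryr2 and Ryr3 thus moved by more than 3-fold with the length used, while Ryr2 stayed the higher. For Ryr2 2 models were quantified, where M21 lists 14, and for Ryr3 8, where M21 lists 12. Their TPM values thus rest on unlike sets of models. The 3′ end of Ryr3 overlaps Aven on the other strand, and Aven had 567 and 283 counts. The labels do not say whether counting used strand, so the reads of the 2 genes in the overlap cannot be told apart.

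Ryr1, the skeletal muscle release channel (ENSMUSG00000030592.12, chromosome 7, 29003344 to 29125179, minus strand), stood at 0.25 and 0.08 TPM. It had 118 counts in replicate 1 and 35 in replicate 2 over about 15352 nt, with intervals of 0.208 to 0.298 and 0.0595 to 0.115 TPM that did not overlap. Ryr2 exceeded Ryr1 35.2-fold and 160.8-fold, and the ranges of the 2 genes over the pools lay apart.

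Itpr1 (ENSMUSG00000030102.8, chromosome 6, 108213096 to 108551109, plus strand), an IP3 receptor best known from brain, stood at 7.64 and 9.48 TPM from 2266 and 2534 counts. Its 1 model in the tables is 9848 nt long. M21 lists 13, short and retained-intron models among them, and the other 12 were not quantified, so a comparison with Itpr2 sets 1 annotated model against 9. Itpr2 (ENSMUSG00000030287.11, chromosome 6, 146108299 to 146502223, minus strand), the main IP3 receptor of adult heart muscle cells, stood at 15.76 and 18.04 TPM from 1206 and 1558 counts. Its intervals, 14.1 to 17.8 and 16.2 to 20.1 TPM, overlapped. Itpr3 (ENSMUSG00000042644.8, chromosome 17, 27057304 to 27122223, plus strand), the form typical of epithelial cells, stood at 2.39 and 2.42 TPM from 646 and 591 counts, with overlapping intervals.

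The order of Itpr1 and Itpr2 turned with the length used. By TPM Itpr2 exceeded Itpr1 2.06-fold and 1.90-fold (mean log2 ratio 0.98 ± 0.08), a difference larger than the spread between pools. With the longest model as length, Itpr1 exceeded Itpr2 2.24-fold and 1.94-fold (log2 ratio of Itpr2 over Itpr1 -1.04 ± 0.14), also larger than the spread, and Itpr1 had the more counts in both pools. Over protein-coding models alone the log2 ratio was -2.16. Itpr1 exceeded Itpr3 3.20-fold and 3.92-fold, with no overlap on any of these scales.

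Of the summed TPM of the 6 channel genes, Ryr2 held 26.1 ± 2.65%, Itpr2 41.4 ± 2.95% and Itpr1 20.9 ± 0.30%. With the longest model as length Ryr2 held 40.4 ± 2.85%, Itpr1 32.3 ± 1.47% and Itpr2 15.5 ± 0.88%. By counts not divided by length Ryr2 held 52.2 ± 2.89%. Ryr2 was thus second to Itpr2 by TPM and the first of the 6 on the other scales, including protein-coding models alone, where it held 44.4 ± 2.99%. M21 lists 14 models of Ryr2, of which 2 long coding ones were quantified, against 9 of 11 for Itpr2. The TPM shares of these genes thus rest on unlike sets of models. Ryr2 and Itpr1 were close per length: Ryr2 exceeded Itpr1 1.15-fold and 1.36-fold, and their ranges over the pools overlapped.

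The 3 IP3 receptors together held more than the 3 ryanodine receptors on the length-scaled measures in both pools. The ryanodine receptors' part of the 6-gene sum was 28.9% and 34.8% by TPM and 41.4% and 44.6% with the longest model as length. By counts, which favour long transcripts, it was 53.8% and 56.9%.

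**Figure D2:**
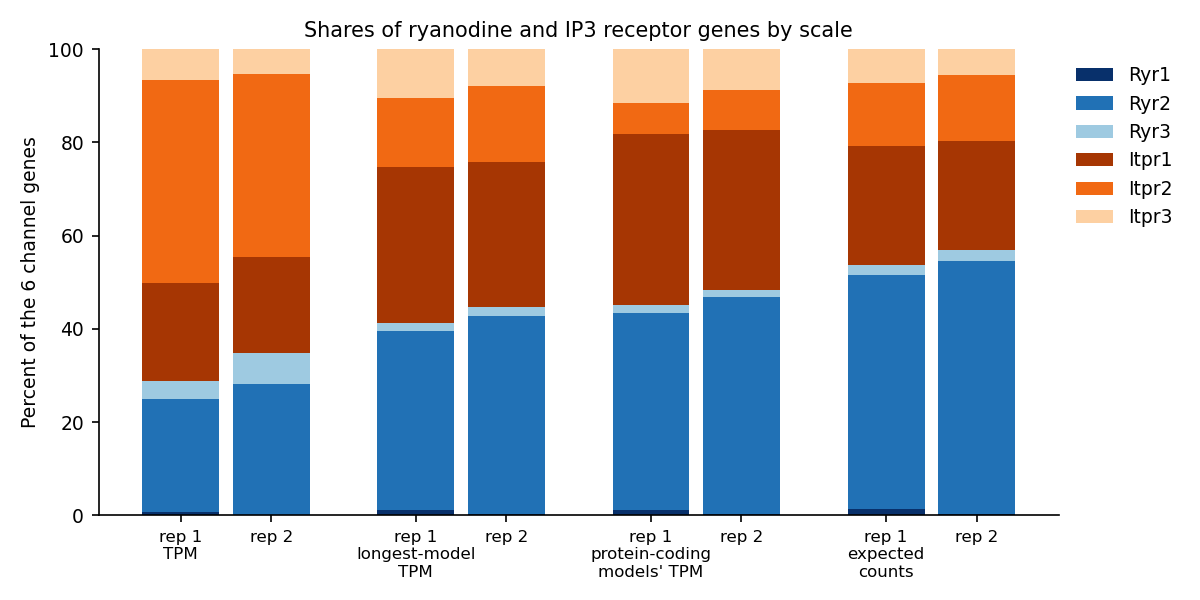
Share of each of the 6 channel genes in their summed level, in percent, for each pool (bars, replicate 1 left and replicate 2 right of each pair) on 4 scales: deposited TPM, TPM with the longest model as length, TPM of protein-coding models, and expected counts. Itpr2 is the largest segment by TPM (43.5% and 39.3%), and Ryr2 is the largest on the other 3 scales.

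The transcript rows show where the length of Itpr2 came from. The tables hold 9 models of Itpr2. The full-length coding model Itpr2-201 (11699 nt in the tables and 8331 nt in M21) had 495 and 759 counts, the most of any in both pools, but 1.40 and 2.38 TPM, which is 8.91% and 13.2% of the gene's TPM. Itpr2-203, a processed transcript of 582 nt without an annotated coding sequence, had 90.6 and 62.1 counts, but 6.17 and 4.69 TPM, or 39.1% and 26.0%. Itpr2-208, a retained-intron model of 2464 nt, held 24.98% and 30.1%, and Itpr2-206, a model of 2834 nt typed as a target of nonsense-mediated decay, held 25.4% and 27.9%. Models not typed as protein-coding thus held 91.1% and 86.8% of the TPM of Itpr2 and 58.9% and 51.3% of its counts. These 3 short models all lie in the first 129 kb of the 394 kb gene, counted from its 5′ end.

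The last exon of Itpr2-203 is shown because it is what sets this model apart. In M21, 5 of its 6 exons lie inside exons of Itpr2-201, and the last overlaps no exon of any other Itpr2 model. It lies at chr6:146421418-146421474 on the minus strand (GENCODE M21 sequence, GRCm38), is 57 nt long, and is given in capitals after the last 30 nt of the exon before it.
Itpr2-203 last exon: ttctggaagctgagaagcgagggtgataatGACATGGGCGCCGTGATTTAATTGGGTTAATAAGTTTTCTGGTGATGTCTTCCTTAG

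Ryr3 showed the same kind of gap. Of its 8 models, the coding Ryr3-201 (15396 nt) had 164 and 190 counts, or 80.4% and 75.5% of the gene's counts, but 24.8% and 14.9% of its TPM. Ryr3-203, a retained-intron model of 430 nt, held 31.3% and 46.6% of TPM on 4.49 and 12.9 counts. The TPM of Ryr3 in replicate 2 therefore rested in large part on about 13 reads. Models not typed as protein-coding held 75.5% and 85.2% of the TPM of Ryr3 and 19.6% and 24.5% of its counts.

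Itpr2 and Ryr3 were the 2 of 10 release genes whose leading transcript by mean TPM was not the leading one by mean count. The same held for 11.4% of 9527 protein-coding genes with 2 or more models. Over protein-coding models alone it held for 0 of the 10. For Itpr2 the leading transcript by TPM was Itpr2-203 in replicate 1 but Itpr2-208 in replicate 2, and Itpr2-201 led by count in both. Among the 10 genes, Itpr1, Itpr3 and Trdn have 1 model each in the tables, which uses annotation release M4, and could not differ.

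**Figure D3:**
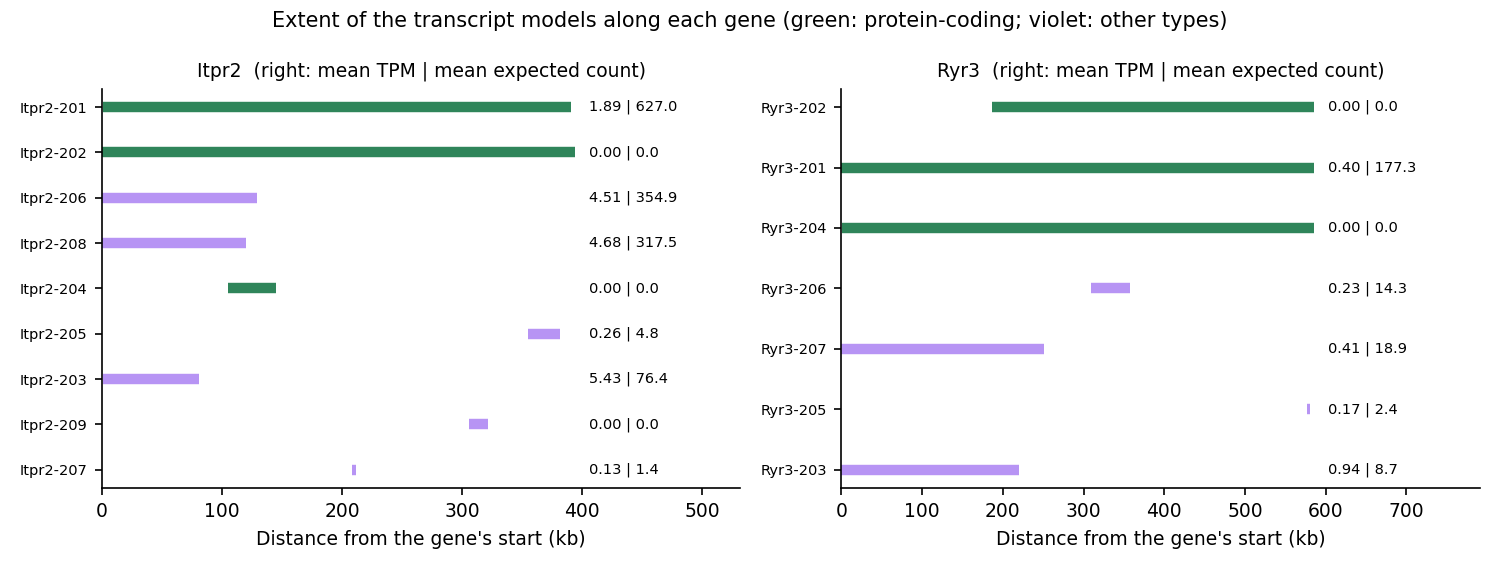
Extent of each named transcript model of Itpr2 (left) and Ryr3 (right) along its gene, in kb from the gene's 5′ end; green bars are protein-coding models, violet bars other types, and the numbers at the right of each bar are its mean TPM and mean expected count over the 2 pools. The models with the highest mean TPM of each gene, Itpr2-203 and Ryr3-203, are short of the far end, while the full-length Itpr2-201 and Ryr3-201 have the most counts of any single model.

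Ryr2 has 2 coding models in the tables, of equal length, and Ryr2-201 held 93.9% and 91.7% of its TPM against 6.09% and 8.33% for Ryr2-202. The deposited posterior mean, a second estimate of the same quantity, divided them differently, with 55.0% and 72.2% for Ryr2-201. Their deposited TPM intervals overlapped in both pools, at 2.00 to 8.11 against 0.53 to 6.64 in replicate 1 and 6.25 to 11.8 against 0.78 to 6.28 in replicate 2. In their M21 sequences (16814 and 16813 nt) the models differ in a pair of coding exons of 36 nt together, within which 21 letters differ, and by 1 nt at the 3′ end, and 134 of the 16715 windows of 100 nt in Ryr2-201, or 0.80%, are absent from Ryr2-202. The division between these models therefore rests on few reads.

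Both stretches are shown because they hold the coding difference between the 2 models, with the 36 nt of unshared exons in capitals and 12 shared nt on each side (GENCODE M21, GRCm38, chromosome 13, minus strand). In Ryr2-201 they are exon 4 (11903218 to 11903238, 21 nt) and exon 5 (11890834 to 11890848, 15 nt). In Ryr2-202 they are exon 4 (11900906 to 11900912, 7 nt) and exon 5 (11895192 to 11895220, 29 nt).
Ryr2-201 differing stretch: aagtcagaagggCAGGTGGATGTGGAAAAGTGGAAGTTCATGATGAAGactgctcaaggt
Ryr2-202 differing stretch: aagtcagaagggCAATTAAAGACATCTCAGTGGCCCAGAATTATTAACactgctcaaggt

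Ryr1 had a similar division on fewer reads. Ryr1-201 held 98.2% and 97.6% of TPM but 52.9% and 46.2% of the posterior mean, so that the data did not separate it from Ryr1-202. For the storage and junction genes 1 coding model led on every estimate. Casq1-201 held 92.2% and 89.9% of TPM, with the retained-intron model Casq1-202 at 6.86% and 9.14%. Jph2-201 held 96.9% and 95.04%, and Casq2-201 held 100% and 98.0%, or 76.1% and 85.8% of the posterior mean.

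**Figure D4:**
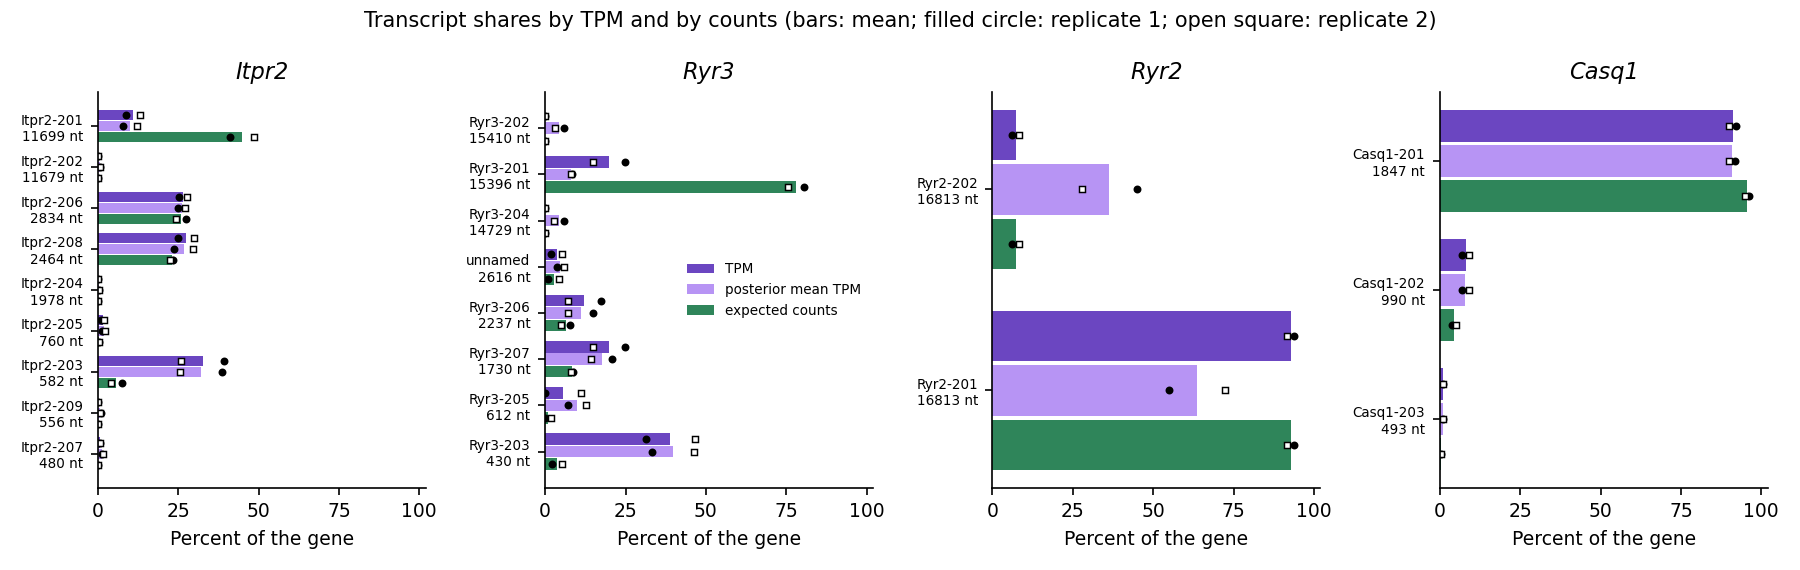
Share of each transcript model in its gene, in percent, for Itpr2, Ryr3, Ryr2 and Casq1, with model lengths in nt; bars are means over the 2 pools of the share of TPM, of the posterior mean TPM and of expected counts, and circles and squares are replicates 1 and 2. The TPM and count bars differ most for the short and the full-length models of Itpr2 and Ryr3, and the 2 TPM estimates differ most for Ryr2.

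Casq1, the calsequestrin of fast skeletal muscle (ENSMUSG00000007122.7, chromosome 1, 172209894 to 172219868, minus strand), was the most abundant release gene, at 188 and 260.5 TPM. It had 9599 and 11840 counts, and its intervals, 180.0 to 189.9 and 249.4 to 261.1 TPM, did not overlap. Casq2, the cardiac calsequestrin (ENSMUSG00000027861.9, chromosome 3, 102086415 to 102146514, plus strand), stood at 4.66 and 16.75 TPM from 348 and 1128 counts. Casq1 thus exceeded Casq2 40.4-fold in replicate 1 and 15.6-fold in replicate 2 (log2 ratio of Casq2 over Casq1 -4.63 ± 0.96). Casq1 held 97.6% and 94.0% of the summed TPM of both genes, and the ranges lay apart on every scale used, at 38.8-fold and 14.8-fold with the longest model and 27.6-fold and 10.5-fold by counts. The gap was narrower in replicate 2, where the level of Casq2 was 3.59 times that in replicate 1 and the level of Casq1 1.38 times.

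The genes of skeletal muscle named next stood far below Casq1. They were picked for mention after their values were seen and do not stand for all genes active in skeletal muscle. Which cells the Casq1 RNA came from was not tested. Atp2a1, the calcium pump of fast skeletal muscle, stood at 7.93 and 5.77 TPM, and Cacna1s, the L-type channel gene of skeletal muscle, at 1.06 and 1.37 TPM. Myod1, Myog and Myf5, factors of skeletal myoblasts, stood between 0.15 and 2.35 TPM in the 2 pools, Ryr1 at 0.25 TPM or less, and Jph1, the skeletal muscle junctophilin, at 0.84 and 0.46 TPM. Of these genes Cacna1s was higher in replicate 2, as Casq1 was, and the others were lower there. The neighbouring gene Pea15a lies on the same strand of chromosome 1 next to Casq1 without overlapping it and stood at 95.6 and 128.9 TPM. Gm17224, a gene of 500 nt annotated on the other strand within Casq1, had 6.01 counts in each pool.

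The 2 start regions are shown for this pair of related genes with unlike levels. Each is a RefSeq promoter window (GRCm38.p6) of 250 nt before to 50 nt after the start that RefSeq gives, at chr1:172219846-172220145 on the minus strand for Casq1 and chr3:102086165-102086464 on the plus strand for Casq2. For Casq1 that start, 172219895, lies 27 nt upstream of the M21 start of the gene, and for Casq2 both are the same. Capitals mark matches, on either strand, to the E-box (CANNTG), to the GATA factor motif (GATAA) and to the MEF2 site. The TATA box (TATAAA), the TEAD motif (CATTCC) and the CArG box were also searched. The MEF2 and CArG motifs hold ambiguous letters, and the E-box, matched on both strands by the same letters, can overlap other motifs.
Casq1 promoter: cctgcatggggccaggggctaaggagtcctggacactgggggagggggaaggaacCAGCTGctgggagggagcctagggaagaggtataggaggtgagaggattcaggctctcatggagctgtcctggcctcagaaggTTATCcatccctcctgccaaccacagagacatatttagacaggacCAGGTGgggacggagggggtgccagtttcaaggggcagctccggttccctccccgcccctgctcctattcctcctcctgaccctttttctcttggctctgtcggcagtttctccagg
Casq2 promoter: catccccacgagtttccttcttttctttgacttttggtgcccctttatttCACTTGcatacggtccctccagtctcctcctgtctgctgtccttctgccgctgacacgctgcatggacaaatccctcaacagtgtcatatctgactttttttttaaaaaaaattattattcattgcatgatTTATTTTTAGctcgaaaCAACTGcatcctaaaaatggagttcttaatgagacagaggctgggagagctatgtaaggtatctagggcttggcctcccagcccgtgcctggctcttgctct

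The Casq1 window had a GC content of 60.3% and the Casq2 window 44.7%, against a median of 52.7% over 32851 windows. Each held 2 E-boxes, 195 and 67 nt before the start in Casq1 and 200 and 52 nt before it in Casq2, and 72.3% of all windows hold at least 1. The Casq1 window held 1 GATA match, 112 nt before the start, which 25.4% of windows have. The Casq2 window held 1 MEF2 match, 69 nt before the start, which 3.19% of windows have. Of the release genes 7 had a window in the table, 8 windows in all, and none of these held a CArG box, a TATA box or a TEAD motif (1.63%, 13.6% and 14.7% of all windows). Such matches describe letters and not binding.

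Trdn (ENSMUSG00000019787.8, chromosome 10, 33080554 to 33476709, plus strand), which anchors calsequestrin at the release channel, stood at 10.31 and 21.52 TPM from 1384 and 2606 counts, with intervals that did not overlap. The tables hold 1 model of Trdn, Trdn-201, of 4514 nt with a coding sequence of 2079 nt. M21 lists 8, among them Trdn-202 with a coding sequence of 879 nt and Trdn-208 with 831 nt, which were not quantified. Which form of triadin the reads came from was therefore not resolved. Trdn was above Casq2 by 2.21-fold and 1.28-fold, but their ranges over the pools overlapped.

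Jph2, the junctophilin of heart muscle (ENSMUSG00000017817.7, chromosome 2, 163336242 to 163397993, minus strand), stood at 27.02 and 37.00 TPM from 3379 and 4170 counts. Its intervals, 25.7 to 27.5 and 35.2 to 37.4 TPM, did not overlap. Jph2 exceeded Jph1 32.2-fold and 80.4-fold (log2 ratio 5.45 ± 0.85), with ranges apart on every scale used. With a pseudocount of 1 in place of 0.1 the log2 ratio was 4.32, since Jph1, with 121 and 60 counts, stood below that pseudocount.

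Between the pools, 9 of the 10 release genes were higher in replicate 2 after TMM scaling, which sets the libraries to a common level over all mouse genes, against 51.6% of the 14124 genes whose mean count was at least 50. The median log2 ratio of the 10 (replicate 2 over replicate 1) was 0.55, beside 0.01 over all those genes. Casq2 and Trdn were at least 2-fold higher in replicate 2, which 2.44% of genes were. Ryr1 was at least 2-fold higher in replicate 1, which 5.13% of genes were, so that 3 of 10 differed by 2-fold against a background of 7.56%. The deposited intervals did not overlap for 6 genes higher in replicate 2, against 19.0% of all genes, and for Ryr1 in the other direction, against 33.3%.

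Casq2 differed most, with a log2 ratio of 1.94 (95% counting interval 1.77 to 2.12), a 3.85-fold difference. Trdn followed at 1.16 (1.07 to 1.26), or 2.24-fold. Ryr1 was at -1.49 (-2.09 to -0.95), or 2.81-fold higher in replicate 1. These intervals cover counting error only and not differences between embryos or preparations.

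The other 7 genes lay closer together. Ryr2 was at 0.65, Itpr2 at 0.62, Ryr3 at 0.55, Casq1 at 0.55, Jph2 at 0.55, Itpr1 at 0.41 and Itpr3 at 0.12. The counting interval of Itpr3, -0.04 to 0.28, included 0. For Ryr3 the deposited TPM gave 1.08 and for Itpr2 0.19, since the estimated make-up of their short models also differed between the pools.

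Markers of heart muscle moved with the genes that were higher in replicate 2. All 8 cardiomyocyte markers were higher there, with a median log2 ratio of 0.82 and a range of 0.35 to 1.60, and so were all 6 endothelial markers, with a median of 0.61, and all 5 red cell markers, with a median of 0.35. The smooth muscle list had a median of 0.48, with 4 of 5 higher in replicate 2 and Myh11 lower (-1.46). Casq2 was above the whole cardiomyocyte range, Itpr3 and Ryr1 were below it, and the other release genes were within it. Of those within it, Ryr2, Ryr3, Itpr1, Itpr2, Casq1 and Jph2 were also within the endothelial range of 0.36 to 0.75. Spike-in scaling moved the median of all genes from 0.01 to 0.34 and that of the 10 genes from 0.55 to 0.88. The part that the share of heart muscle RNA had in these differences was not tested.

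Marker lists of several other cells were for the most part lower in replicate 2, as Ryr1 was. Of the skeletal myoblast list 2 of 5 genes had a mean count of at least 50, Myog with 83 and 28 counts and Myf5 with 142 and 61, and both were lower in replicate 2 (median -1.13). All 7 liver primordium markers were lower there (median -4.64), as were all 5 macrophage and platelet markers (median -0.52) and Tubb3, the neural marker that passed the count minimum (-0.47). In the macrophage and platelet list the counting intervals of Pf4 (-0.03) and Gp9 (-0.20) included 0. The cushion mesenchyme list had a median of -0.36, with 4 of 5 lower in replicate 2 and Vcan higher (0.61). The epicardial list had one of -0.08, with 4 of 5 lower and Upk3b higher (0.18). Among the 4, the counting intervals of Wt1 (-0.08) and Tbx18 (-0.02) included 0. The part of these cells in the Ryr1 difference was not tested.

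**Figure D5:**
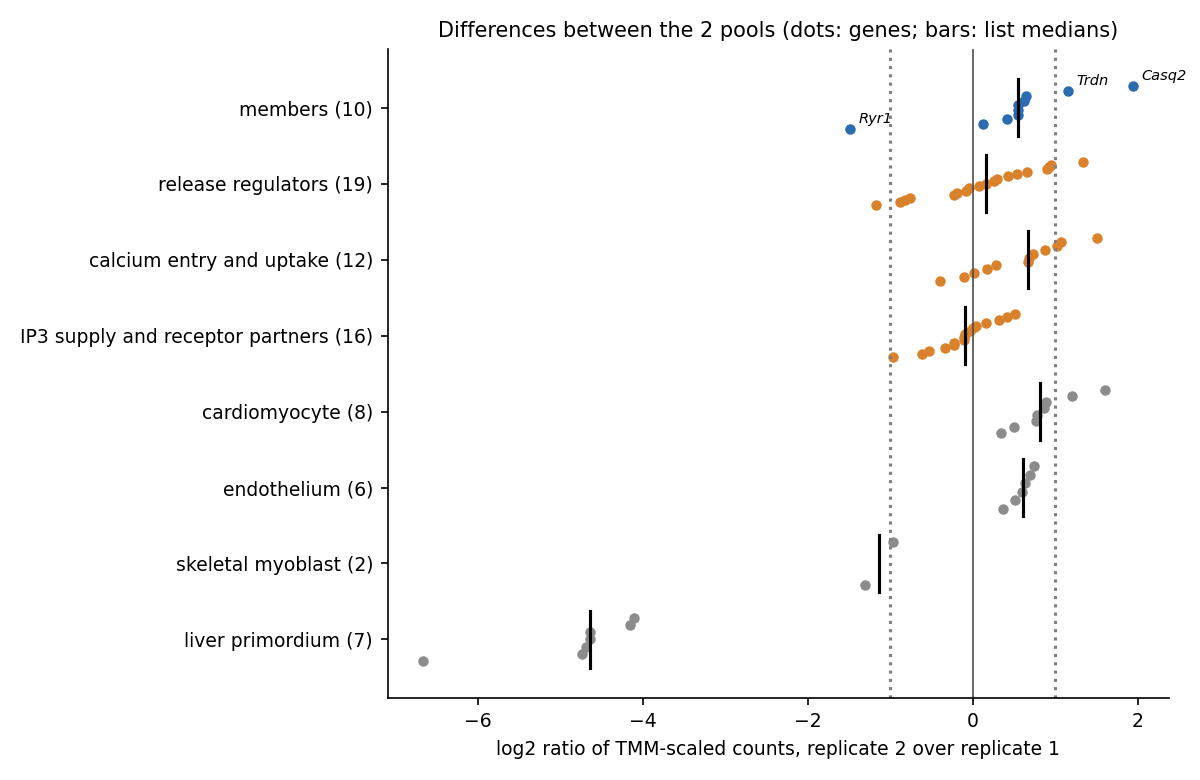
Log2 ratio of TMM-scaled counts, replicate 2 over replicate 1, for the release genes (blue), 3 lists of partner genes (orange) and marker lists (grey), each with the number of genes with a mean count of at least 50; dots are genes, black bars list medians, and dotted lines mark 2-fold. Casq2 (1.94) and Trdn (1.16) lie to the right of the 2-fold line and Ryr1 (-1.49) to the left of it, and the other 7 release genes lie between 0.12 and 0.65.

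The partner genes of the release unit were described from 3 lists. For comparison, 57.0% of protein-coding genes reached 1 TPM in both pools. Of all genes with a mean count of at least 50, 51.6% were higher in replicate 2. At least 2-fold higher were 2.44% of them in replicate 2 and 5.13% in replicate 1. Of 21 regulators of release, 17 reached 1 TPM in both. Among the most abundant were the lumenal chaperone Calr, at 872 and 748 TPM, and Fkbp1a, the FK506-binding protein that sits on ryanodine receptors, at 803 and 785 TPM. Of the 19 with a mean of 50 counts or more, 11 were higher in replicate 2 and 8 in replicate 1, with a median log2 ratio of 0.17. Past 2-fold lay Srl, the store protein sarcalumenin, higher in replicate 2 (1.34), and Bin1, a shaper of transverse tubules, higher in replicate 1 (-1.17).

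All 13 genes of calcium entry and uptake were detected. Pln, the inhibitor of the store's calcium pump, stood at 125 and 330.1 TPM, the pump gene Atp2a2 at 169 and 192 TPM, and the sodium-calcium exchanger Slc8a1 at 46.9 and 88.9 TPM. Of 12 with enough counts, 10 were higher in replicate 2 (median 0.68), 3 of them by 2-fold or more: Pln (1.51), the L-type channel gene Cacna1c (1.07) and Slc8a1 (1.02). Their ratios lay between those of Casq2 and Ryr2.

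Of the genes that make IP3 or bind its receptors all 16 were detected. Of these, 5 were higher in replicate 2 and 11 in replicate 1, with a median of -0.10 and 0 past 2-fold. The counting intervals of Gna11, Itpka and Itpkb among the 11, and of Plcb2 among the 5, included 0. The most abundant were the G protein subunit Gna11, at 65.8 and 62.0 TPM, Ahcyl1, whose product binds IP3 receptors, at 59.8 and 52.7 TPM, and the phospholipase Plcg1, at 37.4 and 31.7 TPM. Itpr1 (0.41) and Itpr2 (0.62) were higher in replicate 2, while the counting interval of Itpr3 (0.12) included 0. Whether the receptors differ from this list was not tested.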

How the data were processed

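Total RNA from 2 pools of E10.5 mouse hearts was measured, 1 library each. Per the labels, the pools are separate biological replicates of 1 group. Per the labels and the file headers, the authors deposited, per gene and per transcript, expected counts (estimated reads, not normalised), TPM and FPKM, the percent of a gene's TPM held by each transcript, posterior means, and bounds of a TPM interval, which are treated as a score. The bounds describe the posterior mean, so a TPM can lie outside them. The build was mm10 and the annotation M4, per the labels and the deposited notes. Not given in the sources used here are the quantifying program, strand use and removal of ribosomal RNA.

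Names, types and positions came from GENCODE M21 (GRCm38, which is mm10), which matched 42462 of 43346 genes. Effective length was the length less 99 nt for all 95070 transcripts over 300 nt. Longest-model TPM is counts over the longest model's effective length, scaled over all features to the same total as TPM. A gene pair was called larger than the spread where both pools gave one sign and the ranges lay apart, on log2(TPM + 0.1). Expected counts were rounded to whole numbers and scaled by TMM in edgeR 4.0.16 (R 4.3.3), with a prior count of 0.5, over genes with a mean of 50 counts. Alternatives used DESeq2 1.42.0 size factors, spike-ins, totals, TPM, FPKM, posterior means, protein-coding models and each library alone. Counting intervals are 95% exact binomial intervals of the division of reads between the libraries. Python 3.11.15, numpy 2.4.6, pandas 2.3.3, scipy 1.17.1 and matplotlib 3.10.9 did the rest. Depth was 45205713 and 41070978 counts, and a count of 0 allows up to 3 counts.

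The release genes and the lists were chosen with earlier results of these data known. Named were all 10 release genes, the leading transcripts by TPM and by counts, and, of each partner list, the 3 genes with the highest mean TPM and up to 4 that differed most past 2-fold. Of these, 1 gene is not reported here. Other transcripts and genes, among them Aven, Pea15a and Gm17224, were chosen after their values were seen.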

Additional observations from a re-analysis of the deposited data

How the results depend on the processing

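The share of Ryr2 among the 6 channel genes, 26.1% by TPM, was 52.2% by expected counts, 40.4% with the longest model as length and 44.4% over protein-coding models. The log2 ratio of Itpr2 over Itpr1, 0.98 by TPM, reversed to -0.81, -1.04 and -2.16 in that order. The first of these settings divides counts by no length and the second by that of the longest model. The last keeps the deposited TPM of protein-coding models and drops that of other models. The log2 ratio of Jph2 over Jph1 was 4.32 with a pseudocount of 1, against 5.45. Spike-in scaling raised the median log2 ratio of the release genes from 0.55 to 0.88, and that of all genes from 0.01 to 0.34. Of all genes with a mean count of at least 50, 81.5% were higher in replicate 2 with spike-ins. That share was 51.6% with TMM and 37.2% with total counts. Of the 10 release genes, 9, 9 and 8 were higher there in that order. Over protein-coding models 0 genes, not 2, had unlike leading transcripts by TPM and counts. The log2 ratio of Itpr3 between pools, 0.12, was -0.0063 with total counts. At 5 TPM 6 of the genes were detected in both pools, against 9 at 1 TPM and 8 by FPKM, with the longest model or over protein-coding models. With a minimum mean count of 200, 2 genes differed by 2-fold, against 3, and with deposited TPM 4. In all, 46 values for the comparisons and 27 for single genes kept their direction and moved by no more than their spread (counts of genes by no more than 1.5-fold), and 22 for single genes moved more without a change of sign. The 46 include the counts of genes at other detection settings and past 2-fold that are given above. Each library alone gave log2 ratios of -5.31 and -3.95 for Casq2 over Casq1, 4.85 and 6.05 for Jph2 over Jph1 and 1.035 and 0.921 for Itpr2 over Itpr1, and Ryr2 shares of 24.3% and 28.0%. With 2 libraries each lies within the SD by construction, so these show nothing of stability. No paired analysis was possible because there is 1 group and no second condition. With 2 pools, the SD of a value is itself poorly known. Counts limit Ryr1 (118 and 35) and the short models of Ryr3 most.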

Other observations

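Further genes of the release unit, chosen after their values were seen, showed which members of small families were the more abundant. Fkbp1a stood at 803 and 785 TPM and its relative Fkbp1b, which prefers RyR2, at 6.87 and 6.21 TPM. Tmem38a, the muscle form of the store's counter-ion channel, stood at 33.5 and 49.2 TPM and Tmem38b at 8.99 and 15.4 TPM. Asph, whose gene also encodes junctin, stood at 80.4 and 100.6 TPM, which does not separate the enzyme from junctin. Hrc, the histidine-rich calcium-binding protein of the store, stood at 14.4 and 26.1 TPM, far below Casq1. Hrc was above Casq2 in each pool, but their ranges over the pools overlapped. S100a1, which binds ryanodine receptors, stood at 53.8 and 94.2 TPM. Stac3, needed for the coupling of the surface channel to RyR1 in skeletal muscle, had 20 and 4 counts.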
